A study of Mus musculus with 36 samples.

Results

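Mouse embryonic stem cells read the stiffness of the surface they sit on, and PD03 (PD0325901) blocks the kinase MEK, which activates ERK. The genes described here are those whose response to stiffness depended on PD03 when LIF was present. The members were 12 of the 36 RNA-seq libraries of the series, those of the 4 groups grown for 48 h in serum with LIF: soft and stiff hydrogels, each without and with PD03, 3 libraries a group. For every expressed gene, log2(soft/stiff) without PD03 was subtracted from log2(soft/stiff) with PD03. This difference of differences is called the interaction below. A negative interaction means that the gene was lower on soft relative to stiff hydrogels by more, or higher by less, once PD03 was added. Of 17702 genes tested, 189 (1.07%) passed an adjusted p of 0.05.

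All cells were embryonic stem cells labelled 129m wt, with no genetic change between groups. They were plated on StemBond hydrogels, polyacrylamide gels with anchored fibronectin made either soft or stiff. The labels do not say whether the libraries of a group came from separate cultures, so the p-values measure the spread between these libraries, which may be technical. The other 24 libraries served as a shared estimate of the spread and, where named, as separate measurements: soft and stiff hydrogels at 24 h in serum + LIF, and at 48 h in serum alone and in serum + PD03. The rest of the 24, 3 libraries on plastic at 48 h in serum + LIF, entered only the shared fit. Markers of the undifferentiated state were present in all 12 libraries, with Nanog at 228, 247 and 243 CPM (a gene's count relative to the library's total count, scaled by TMM) on soft hydrogels without PD03 and Pou5f1 at 593, 611 and 565 CPM.

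Cells sense stiffness through integrins, which bind the matrix outside and, through a layer of adaptor proteins, the actin cytoskeleton inside. Tension on actin changes the location of cofactors of SRF, whose targets encode actins, tropomyosins, calponins and transgelins, and of YAP, which acts with TEAD factors. ERK, downstream of FGF receptors and MEK, moves mouse embryonic stem cells towards differentiation, while LIF sustains the naive state through STAT3. Blocking MEK is therefore a routine way to hold these cells in the naive state.

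The interaction ran mostly one way. Of the 189 genes, 168 had a negative interaction (0.949% of all genes tested) and 21 a positive interaction (0.119%). The negative values ran from -3.23 to -0.25 with a median of -0.68, so that the median gene's soft/stiff ratio with PD03 was 0.626 times the ratio without it. The lowest value was that of Serpinb8, at no more than 1.28 CPM in any of the 12 libraries. All but 1 of the 189 genes were protein coding, the exception being the imprinted long non-coding RNA H19. On the linear CPM scale the difference of differences had the same sign for 165 of the 168 negative and for all 21 positive genes. At the threshold, Pla2g16 was just inside with an adjusted p of 0.0493 and Slc29a4 just outside at 0.0506.

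**Figure D1:**
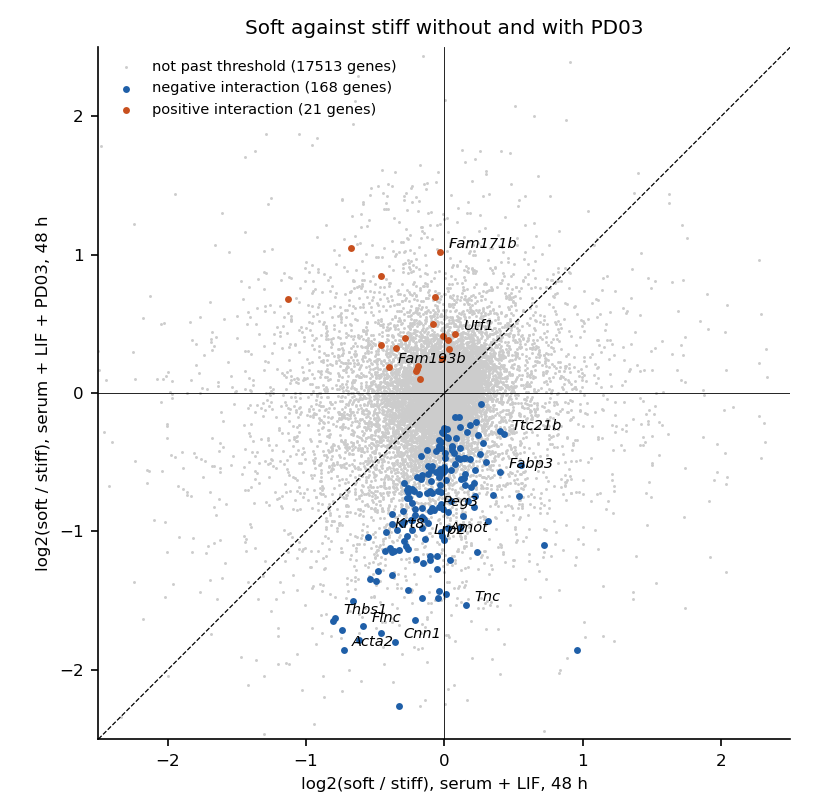
Each point is a gene, placed by log2(soft/stiff) in serum + LIF on the horizontal axis and in serum + LIF + PD03 on the vertical axis, both at 48 h (89 genes fall outside the plotted range). The 168 genes with a negative interaction (blue) lie below the dashed line of equal response, and all of them below 0 on the vertical axis. The 21 with a positive interaction (orange) lie above the dashed line.

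Sorted by the simple comparisons that make up the interaction, 161 of the 189 genes passed the threshold between soft and stiff hydrogels with PD03 and not without it, 147 of them with a negative and 14 with a positive interaction. A further 17 genes were lower on soft hydrogels in both media, each by more with PD03. Fabp3 alone passed in both media with opposite signs. The remaining genes were 3 that passed without PD03 and not with it, and 7 that passed in neither medium. Over all genes tested, soft and stiff differed for 7.61% with PD03 and 0.78% without it. The count of 138 genes behind the second share became 27 without library 3 of stiff and 235 without library 3 of soft hydrogels in serum + LIF, and the sort depends on it. These sorts reuse the libraries of the interaction and are given as a description. In 167 of the 168 negative genes every soft library lay below every stiff library with PD03, against 39 of the 168 without it. Among all genes tested those shares were 13.1% and 7.24%.

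The 12 libraries held 13929917 to 24800445 counted reads, and the first principal component, with 67.0% of the variance, separated the media with and without PD03. The libraries of soft hydrogels in serum + LIF were the most spread group. Library 2 of that group lay at -32.1 on the second component, against -11.5 and 0.69 for the other 2 soft libraries of that medium, and without it 114 genes passed (104 negative). Leaving out any other of the 12 libraries left 138 to 256 genes. Of the 189 genes, 86 passed in every one of the 12 fits that left a library out, 84 of them negative and 2 positive. The labels place soft libraries of both media in sequencing pool 3, and stiff libraries in pool 2 apart from 1 library of stiff hydrogels in serum + LIF in pool 1. Pool and stiffness therefore coincided within each medium, and cancelled in the interaction except for that library. With a term for the pool and each of the 45 ways to assign it to columns, 130 to 188 genes passed.

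The strongest negative interactions belonged to genes of several kinds. Lrp2, which encodes megalin, a large endocytic receptor (chr2:69424340-69586065, minus strand, GRCm38), stood at 181, 186 and 198 CPM on soft and 192, 206 and 223 CPM on stiff hydrogels without PD03, and at 231, 249 and 229 CPM on soft and 482, 481 and 506 CPM on stiff hydrogels with it. The stiff libraries with PD03 lay above the other 9, and the soft libraries with PD03 above the 6 without it. The stiff/soft ratio was 1.1 without and 2.07 with PD03, and the interaction was -0.91 ± 0.08 (SE, n = 3 a group, adjusted p = 4.82e-11). Amot, the gene of angiomotin, which binds actin and YAP at junctions (chrX:145446425-145505181, minus strand), differed from Lrp2 on the soft side. Amot stood at 33.1, 38 and 34 CPM on soft and 34.1, 34.7 and 37.4 CPM on stiff hydrogels without PD03, and at 31.3, 34 and 35.4 CPM on soft and 71.1, 64.7 and 69.5 CPM on stiff hydrogels with it. Its stiff libraries with PD03 lay above the other 9, while its soft libraries with PD03 overlapped those without it. Its stiff/soft ratio went from 1.01 to 2.04, an interaction of -1.01 ± 0.10 (adjusted p = 9.81e-10).

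Fabp3, a fatty acid binding protein of the cytosol (chr4:130308595-130315463, plus strand), changed its direction. It stood at 81.7, 91.9 and 82.5 CPM on soft and 67, 66 and 61.1 CPM on stiff hydrogels without PD03, and at 268, 267 and 283 CPM on soft and 439, 385 and 389.6 CPM on stiff hydrogels with it. The soft libraries were the higher ones without PD03 and the lower ones with it, with no overlap in either medium. The stiff/soft ratio was 0.757 without PD03 (adjusted p = 0.00038) and 1.48 with it (adjusted p = 1.95e-10), and the interaction was -0.97 ± 0.09 (adjusted p = 7.48e-11). Sh3pxd2a, which encodes the scaffold TKS5 of podosomes and invadopodia, stood at 61.5, 57.8 and 56.3 CPM on soft and 53.8, 53.9 and 54 CPM on stiff hydrogels without PD03, and at 51, 51.1 and 52.8 CPM on soft and 79.3, 80.3 and 78.2 CPM on stiff hydrogels with it. Its interaction was -0.74 ± 0.07 (adjusted p = 1.22e-09), and the stiff libraries with PD03 lay above the other 9.

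Peg3, an imprinted zinc finger gene, was at 218 ± 4.45 CPM (SD, n = 3) on soft and 229 ± 10.6 CPM on stiff hydrogels without PD03, and at 263 ± 19.9 and 474 ± 36.9 CPM with it (interaction -0.77 ± 0.08, adjusted p = 1.22e-09). Cgn, which encodes the tight junction protein cingulin, reached its negative interaction of -0.83 ± 0.09 (adjusted p = 1.73e-08) from the soft side. Cgn stood at 58.4, 54.5 and 47.8 CPM on soft and 52.7, 51.3 and 57.5 CPM on stiff hydrogels without PD03, and at 30.2, 28.5 and 32.5 CPM on soft and 55.2, 53 and 54.6 CPM on stiff hydrogels with it, so that the soft libraries with PD03 were the ones that stood apart and the other 3 groups overlapped. Pea15a, which encodes a small protein that binds ERK in the cytoplasm, had its lowest levels there too. Pea15a stood at 42.2, 43.6 and 38 CPM on soft and 42.8, 44.6 and 40.0 CPM on stiff hydrogels without PD03, and at 18.8, 20.3 and 20.1 CPM on soft and 35.6, 34.8 and 34.1 CPM on stiff hydrogels with it (interaction -0.78 ± 0.10, adjusted p = 1.36e-06). Lpp, a zyxin-family protein of focal adhesions, had an interaction of -0.77 ± 0.09 (adjusted p = 1.61e-07), with stiff/soft ratios of 1.3 and 2.22. The interactions of these genes and of Lrp2, Fabp3, Amot, Sh3pxd2a and Flnc passed the threshold in each of the 12 fits that left a library out, in each of the 8 other processing choices and in each pool assignment.

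**Figure D2:**
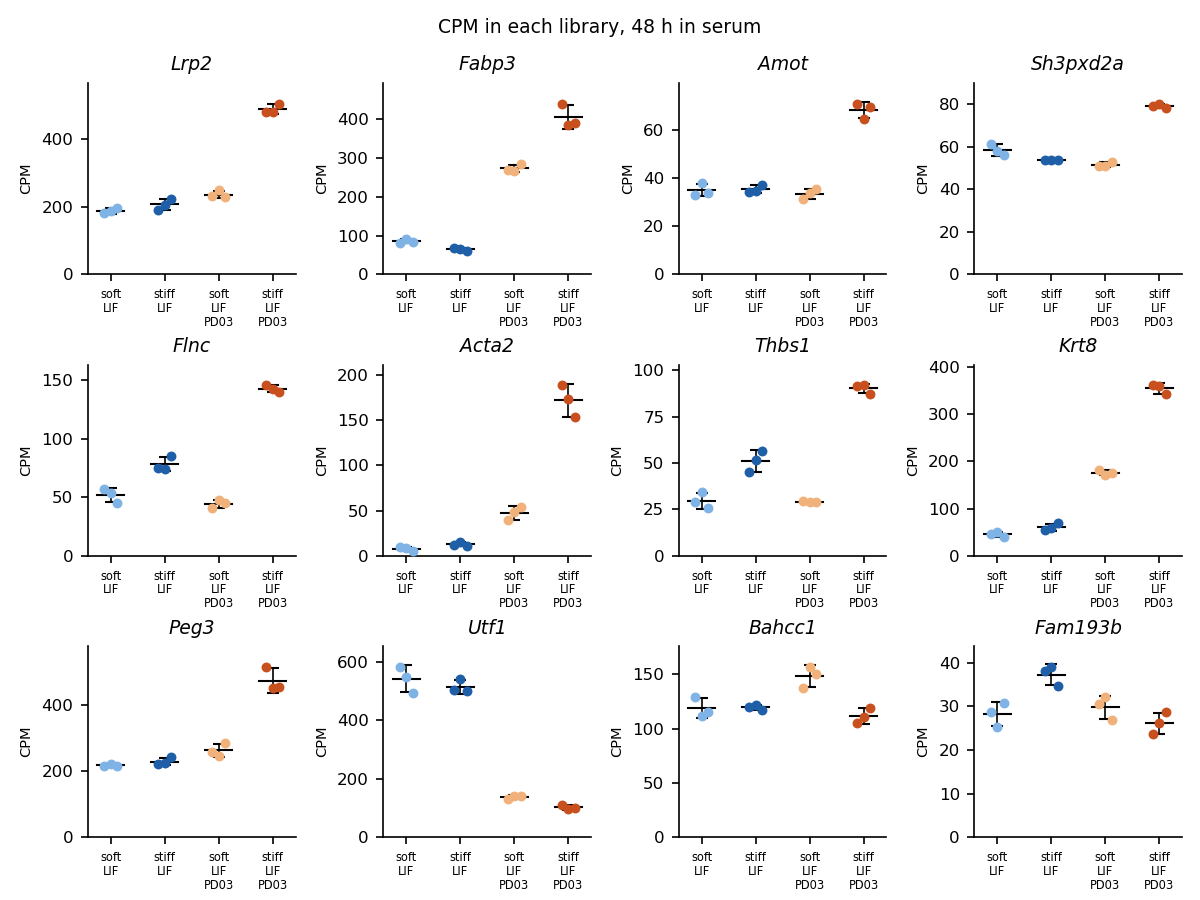
Each panel shows 1 gene, with CPM on the vertical axis from 0 and the 4 groups on the horizontal axis. Points are libraries, horizontal lines are means and bars are SD (n = 3 a group). In Lrp2, Amot, Flnc and Thbs1 the stiff libraries with PD03 stand above all others, Fabp3 reverses its order between media, and Utf1 and Bahcc1 are higher on soft than on stiff hydrogels only with PD03.

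Genes of the actin cytoskeleton and SRF targets held calls in 1 direction. Of 22 members tested, 9 passed with a negative interaction (Acta2, Tagln, Tagln2, Cnn1, Cnn2, Flnc, Tpm1, Tpm2 and Zyx) and 0 with a positive one, against 0.949% and 0.119% of all genes. All 22 values were negative, from -1.74 to -0.12, with a median of -0.45 against 0.00 over all genes tested. Flnc, filamin C, crosslinks actin filaments (chr6:29433256-29461883, plus strand). Flnc stood at 56.7, 53.9 and 45.5 CPM on soft and 75.2, 74 and 84.9 CPM on stiff hydrogels without PD03, and at 40.5, 47.6 and 44.8 CPM on soft and 146, 142 and 139 CPM on stiff hydrogels with it. Soft libraries were the lower ones in both media with no overlap, and the stiff/soft ratio went from 1.5 to 3.22 (interaction -1.10 ± 0.10, adjusted p = 7.48e-11).

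Acta2, smooth muscle alpha-actin (chr19:34241090-34255590, minus strand), stood at 9.59, 8.25 and 5.62 CPM on soft and 12.3, 15.7 and 11.4 CPM on stiff hydrogels without PD03, and at 39.7, 48.1 and 54.5 CPM on soft and 189, 173 and 153 CPM on stiff hydrogels with it. PD03 raised its level on both substrates, and the gap between substrates widened on the ratio scale as well, from 1.65 to 3.62 (interaction -1.13 ± 0.20, adjusted p = 0.000298). Tagln, transgelin, bundles actin filaments and had a ratio of 1.67 without and 3.28 with PD03 (interaction -0.97 ± 0.20, adjusted p = 0.00389), a call lost without library 2 of soft hydrogels in serum + LIF (adjusted p = 0.0612). Cnn1, calponin 1, was low, at 4.01, 2.98 and 2.49 CPM on soft and 4.83, 3.27 and 4.09 CPM on stiff hydrogels without PD03, and at 2.77, 3.44 and 4.2 CPM on soft and 11.5, 12.3 and 12.3 CPM on stiff hydrogels with it (interaction -1.44 ± 0.30, adjusted p = 0.00396). Its 3 other groups overlapped and the stiff libraries with PD03 lay above them.

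The remaining members of this list that passed had stiff/soft ratios nearer to 1. Tropomyosins stabilise actin filaments, and Tpm1 and Tpm2 had interactions of -0.36 ± 0.07 (adjusted p = 0.000953) and -0.60 ± 0.09 (adjusted p = 4.26e-05). Tagln2 and Cnn2, relatives of Tagln and Cnn1 that are expressed outside muscle, had stiff/soft ratios of 0.995 and 1.0 without PD03, and of 1.47 and 1.45 with it. Zyx encodes zyxin, a sensor of tension on stress fibres, and stood at 49, 51.2 and 42.6 CPM on soft and 54.4, 53.9 and 59.2 CPM on stiff hydrogels without PD03, and at 65.9, 61.8 and 65.7 CPM on soft and 106, 108 and 99.1 CPM on stiff hydrogels with it (interaction -0.46 ± 0.09, adjusted p = 0.0024). Actc1 had the lowest value of the list at -1.74 without passing (adjusted p = 0.265), and Srf itself was at -0.12 (adjusted p = 0.625).

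Promoter sequence was looked up for these genes because SRF binds a short element, the CArG box. In the RefSeq promoters (GRCm38.p6), 131 of the 168 negative genes matched, under 80%, so a share of promoters with the box was not compared between groups of genes. Among the 27025 genes with a promoter, 1.62% held at least 1 CArG box in the 250 bases before the start, read on both strands. Of the genes named by rule, Fhl1 and Cnn2 held it. For the other genes named, a missing box was not told apart from a missing promoter, so no absence is stated. Fhl1 encodes a LIM-domain protein of muscle and stress fibres, with an interaction of -0.78 ± 0.10 (adjusted p = 2.29e-06) and CPM means of 34.9 ± 1.29 on soft and 60.9 ± 4.44 on stiff hydrogels with PD03 (SD, n = 3). The box of Fhl1 began 102 bases before the start and that of Cnn2 56 bases before it. A match describes the letters and is not evidence of binding. The 60 bases around each box are shown on the gene's strand, with the box in capitals, for Fhl1 at chrX:56779556-56779615 (plus strand) and Cnn2 at chr10:79988519-79988578 (plus strand).
Fhl1: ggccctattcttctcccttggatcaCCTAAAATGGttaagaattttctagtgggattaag
Cnn2: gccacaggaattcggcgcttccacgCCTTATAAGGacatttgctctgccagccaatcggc

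YAP targets, adhesion and matrix genes had fewer calls than the actin and SRF list, and no test compared the lists. Of 14 YAP and TEAD targets, 2 passed, both negative (Thbs1 and F3), against 0.949% of all genes, and the list median was -0.20. Thbs1, thrombospondin 1, a secreted matrix glycoprotein, stood at 29.2, 34.2 and 25.6 CPM on soft and 45, 51.7 and 56.7 CPM on stiff hydrogels without PD03, and at 29.6, 28.9 and 28.9 CPM on soft and 91.3, 92 and 87.3 CPM on stiff hydrogels with it. It was lower on soft hydrogels in both media, with a stiff/soft ratio of 1.73 without and 3.09 with PD03 (interaction -0.84 ± 0.11, adjusted p = 3.36e-06). F3, the coagulation initiator tissue factor, had an interaction of -0.78 ± 0.18 (adjusted p = 0.0119), a call that held in 10 of the 12 fits with a library left out. The widely used targets Ccn1 and Ccn2 were at -0.21 (adjusted p = 0.686) and -0.07 (adjusted p = 0.841).

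Of 15 integrin and focal adhesion genes, Parva and Itgb1 passed, both negative, with a list median of -0.13. The share of negative calls over all genes, to be read beside this list and the matrix list, was 0.949%. Parva encodes parvin alpha, which ties integrin-linked kinase to actin. Parva stood at 15.2, 15.7 and 12.8 CPM on soft and 14.3, 16.5 and 19.6 CPM on stiff hydrogels without PD03, and at 25.3, 24.5 and 26.4 CPM on soft and 48.1, 48 and 44.4 CPM on stiff hydrogels with it (interaction -0.67 ± 0.14, adjusted p = 0.00389). Itgb1, the integrin beta 1 chain shared by fibronectin receptors, had -0.29 ± 0.08 (adjusted p = 0.0489) and kept its call in 4 of the 12 fits that left a library out and in 0 of the 45 pool assignments. Among 22 collagen and matrix genes, only Tnc, tenascin C, passed (-1.69 ± 0.43, adjusted p = 0.0313), at 0.58 to 3.18 CPM in the 6 libraries with PD03, although 20 of the 22 values were negative and the median was -0.21. That call held in 7 of 12 fits.

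Of 14 keratin and junction genes tested, 5 passed with a negative and 0 with a positive interaction, against 0.949% and 0.119% of all genes. Their median was -0.35. Keratins 8, 18 and 19 are the intermediate filaments of simple epithelia. Krt8 stood at 46.7, 50.1 and 39.6 CPM on soft and 54.3, 58.6 and 69 CPM on stiff hydrogels without PD03, and at 182, 171 and 176 CPM on soft and 361, 359 and 342 CPM on stiff hydrogels with it (interaction -0.59 ± 0.11, adjusted p = 0.00117). Its partner Krt18 had stiff/soft ratios of 1.47 and 2.05 (interaction -0.49 ± 0.10, adjusted p = 0.0042), a call lost without library 2 of soft hydrogels in serum + LIF (adjusted p = 0.0653). Both have processed pseudogenes that can share reads, so their counts are uncertain to that extent. Krt19 had -0.72 ± 0.17 (adjusted p = 0.017, 9 of 12 fits), Dsp, the desmosomal protein desmoplakin, -0.46 ± 0.08 (adjusted p = 0.000168), and the adhesion molecule Epcam -0.34 ± 0.09 (adjusted p = 0.0335, 5 of 12 fits). Cdh1, E-cadherin, was at -0.02 (adjusted p = 0.966).

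**Figure D3:**
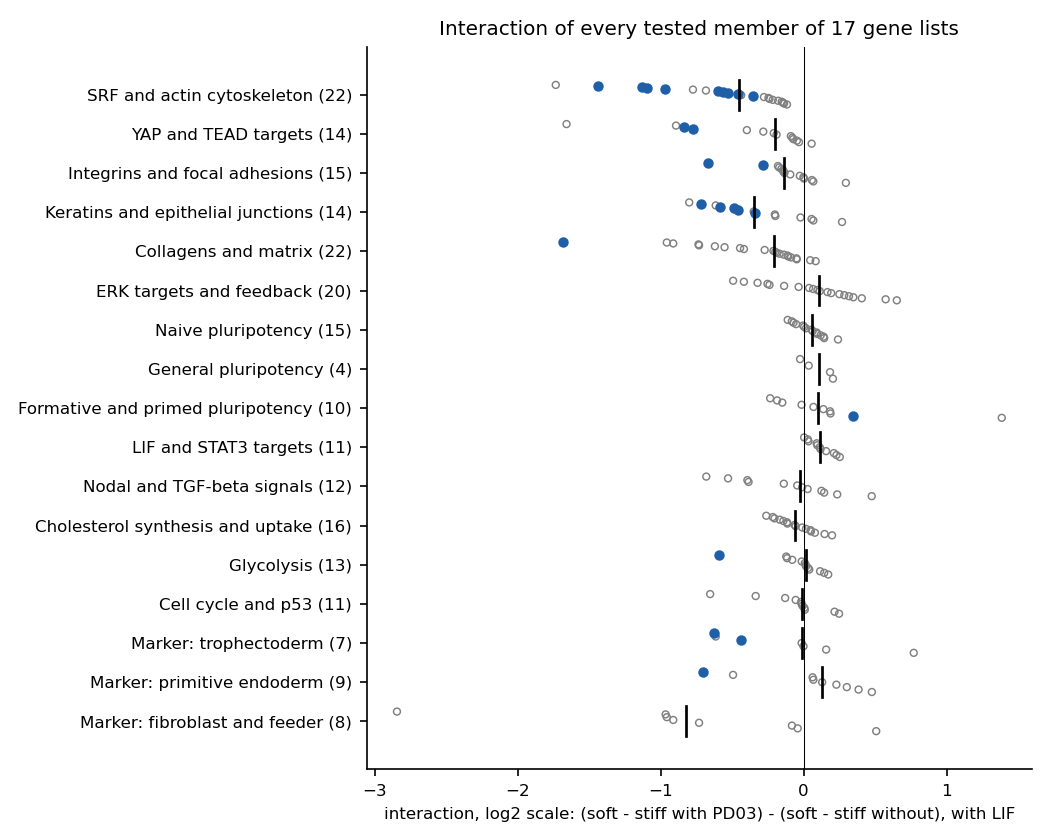
Every tested member of 17 gene lists, in rows with the number of members, is placed by its interaction with LIF on the log2 scale. Filled points passed the adjusted p of 0.05, open points did not, and black bars are list medians. The fibroblast and feeder markers (median -0.82, no member past the threshold) lie furthest below 0, followed by actin and SRF genes (median -0.45) and keratin and junction genes (median -0.35), while naive pluripotency genes stay between -0.11 and 0.24.

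Markers of other cell types held 3 calls, all negative, and 0.949% of all genes passed as negative. Of 7 trophectoderm markers, Hand1 (-0.63 ± 0.16, adjusted p = 0.0312, 5 of 12 fits) and Tfap2c (-0.44 ± 0.08, adjusted p = 0.00135) had negative interactions, and the median of the list was -0.01. Their summed level was 72.5 to 88.5 CPM on soft and 77.2 to 89.5 CPM on stiff hydrogels without PD03, and 255.5 to 257.3 CPM and 326.8 to 351.6 CPM with it. Of 8 fibroblast and feeder markers tested, 0 passed in edgeR or DESeq2 and 3 had an unadjusted p under 0.05. Their values were below 0 for 7 of 8, and their median of -0.82 lay below that of the actin and SRF list. Their sum was 31.5 to 36.7, 40.2 to 48.2, 35.9 to 50.8 and 94.3 to 101.2 CPM in the same order. Most of it was Col1a1, at 76.4 CPM on stiff hydrogels with PD03 (interaction -0.73, adjusted p = 0.0534), while Dcn was under 1 CPM in all 4 group means. Of 9 primitive endoderm markers, the endocytic adaptor Dab2 passed (-0.70 ± 0.12, adjusted p = 0.00014), and the list median was 0.13. Of 6 mesoderm, 5 neural and 4 2-cell-like markers, 0 passed in edgeR or DESeq2, with 1 unadjusted p under 0.05 among them, in the neural list. The part of these cells in the result was not tested, and in bulk samples more cells of a type and more RNA per cell cannot be told apart.

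The pluripotency lists held no gene with a negative call in the interaction with LIF. Of 15 naive genes 0 passed in edgeR, DESeq2 or limma-voom and 1 had an unadjusted p under 0.05, with values between -0.11 and 0.24 and a median of 0.06. Nanog and Tfcp2l1 both had an interaction of 0.00 on the log2 scale, with SE of 0.08 and 0.07. Nanog stood at 889, 877 and 798 CPM on soft and 777, 793 and 816 CPM on stiff hydrogels with PD03, well above its levels without PD03 and with the substrates overlapping. Of the 4 general genes 0 passed in these tools (2 at an unadjusted p under 0.05), among them Pou5f1 (0.20), Sox2 (0.18) and Sall4 (0.04), and of the 11 LIF and STAT3 targets 0 passed (2 unadjusted), with values from 0.00 to 0.25. Of 10 formative and primed genes, Utf1 passed with a positive interaction, as did 0.119% of all genes.

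ERK targets and feedback genes held 0 calls of 20 in edgeR, DESeq2 and limma-voom and 6 at an unadjusted p under 0.05. Their values ran from -0.49 to 0.65 with a median of 0.10. The members did not all move the same way with PD03. Jun rose from a mean of 8.16 to 19.3 CPM on soft and from 11.5 to 32.1 CPM on stiff hydrogels. Myc fell from 308, 288 and 263 CPM to 39.2, 42.3 and 45.2 CPM with PD03 on soft and from 273, 284 and 276 CPM to 49.8, 43.4 and 42 CPM on stiff hydrogels. Its interaction was -0.14 (adjusted p = 0.702), with overlapping substrates in both media. Etv5 and Ccnd1, also ERK targets, were at 0.04 (adjusted p = 0.933) and 0.19 (adjusted p = 0.262). These values do not show that the genes respond alike in both media, since a p that misses the threshold leaves an interaction within the error of the value.

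Metabolic lists were mostly without calls. The glucose transporter Slc2a1 was the exception among 13 glycolysis genes, at 566, 569 and 488 CPM on soft and 501, 497 and 501 CPM on stiff hydrogels without PD03, and at 422, 440.2 and 452 CPM on soft and 648, 603 and 579 CPM on stiff hydrogels with it (interaction -0.59 ± 0.09, adjusted p = 5.49e-05). No other glycolysis gene passed, and the list median was 0.01. Of 10 genes for fatty acid binding and lipid handling Fabp3 passed, and 0 passed of 16 cholesterol, 12 amino acid stress and serine synthesis, 11 cell cycle and p53, 12 Nodal and TGF-beta and 9 germline genes in edgeR. At an unadjusted p under 0.05 these 5 lists held 3, 4, 2, 5 and 1 genes, and DESeq2 called 2 Nodal and TGF-beta genes and 1 germline gene. Among their most expressed members were Mki67 at -0.13, Ccne1 at -0.06, Hmgcs1 at -0.14, Shmt2 at 0.15 and Tdgf1 at 0.23. The study's own clusters of pre- and post-implantation epiblast genes held 4 called genes of 137 tested (3 negative) and 12 of 197 (9 negative), with medians of 0.05 and -0.05. Over all genes tested, 1.07% passed, 0.949% as negative and 0.119% as positive.

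The 21 positive interactions ran from 0.26 to 5.75 with a median of 0.59, and 2 of the 21 kept their call in each of the 12 fits with a library left out, against 84 of the 168 negative ones. The highest value, of Nyx, was a fitted value against a group with no reads (stiff hydrogels with PD03) and is no measure of size. Bahcc1, a chromatin protein, stood at 129, 112 and 115 CPM on soft and 119, 122 and 117 CPM on stiff hydrogels without PD03, and at 137, 157 and 150.1 CPM on soft and 105, 110.3 and 119 CPM on stiff hydrogels with it. The soft libraries lay above the stiff ones with PD03 only (interaction 0.42 ± 0.08, adjusted p = 0.00117). Utf1, a chromatin-bound factor of pluripotent cells, stood at 585, 549 and 493 CPM on soft and 503, 542 and 499.6 CPM on stiff hydrogels without PD03, and at 131, 140.1 and 142 CPM on soft and 110.2, 96 and 102 CPM on stiff hydrogels with it. PD03 lowered it on both substrates, further on stiff, with an interaction of 0.35 ± 0.08 (adjusted p = 0.00734, 7 of 12 fits).

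Zbtb12, a zinc finger gene, had 0.59 ± 0.13 (adjusted p = 0.00608, 11 of 12 fits) and Eng, the TGF-beta co-receptor endoglin, 0.39 ± 0.09 (adjusted p = 0.00966, 6 of 12 fits). Fam171b was low, at 3.42 ± 0.391 CPM on soft and 1.7 ± 0.541 CPM (SD, n = 3) on stiff hydrogels with PD03 (1.05 ± 0.25, adjusted p = 0.0173, 7 of 12 fits), and the tetraspanin Tspan5 had 0.68 ± 0.17 (adjusted p = 0.0191, 6 of 12 fits). The histone H3 gene Hist1h3h had 0.76 ± 0.16 (adjusted p = 0.00389), but near-identical copies share its reads and its count is uncertain. In the fit on the 12 libraries alone 11 positive genes passed, and with a pool term 8 to 17.

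Some genes differed between substrates without PD03 and not with it. Ttc21b, which encodes a protein of transport within cilia, stood at 16.1, 16.6 and 16.4 CPM on soft and 12.1, 12 and 12.4 CPM on stiff hydrogels without PD03, and at 5.24, 4.78 and 4.63 CPM on soft and 6.56, 6.15 and 5.43 CPM on stiff hydrogels with it. The soft libraries were higher without PD03 and lower with it, the second difference not past the threshold (adjusted p = 0.118), and the interaction was -0.73 ± 0.15 (adjusted p = 0.00442). Fam193b stood at 28.8, 25.2 and 30.8 CPM on soft and 38, 39.2 and 34.7 CPM on stiff hydrogels without PD03, and at 30.5, 32.1 and 27 CPM on soft and 23.8, 26.2 and 28.6 CPM on stiff hydrogels with it. It was lower on soft hydrogels without PD03 and overlapped with it (interaction 0.58 ± 0.14, adjusted p = 0.0178, 6 of 12 fits). Of the genes that passed in neither medium alone, the ephrin receptor gene Epha2 had 0.28 ± 0.07 (adjusted p = 0.0288) and kept its call in 1 of 12 fits, and the neural transcription factor gene Bhlhe22, at under 4 CPM in each of the 12 libraries, had 1.80 ± 0.45 (adjusted p = 0.0272, 5 of 12 fits).

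The genes with a negative interaction were next followed in the soft and stiff libraries of the 3 other conditions. These libraries lie outside the contrast that chose the genes, but they entered the same fit through the filter and the estimate of the spread. All libraries of the 24 h groups belonged to pool 1. There, in serum + LIF, 91 of the 168 (54.2%) passed as lower on soft, against 2.52% of all genes, and 2 passed as higher. In serum alone at 48 h, 85 of the 168 (50.6%) passed as lower against 2.77% of all genes, and 6 as higher. The soft libraries in serum belonged to pool 3 and the stiff ones to pool 2, so pool and stiffness cannot be told apart there. In serum + PD03 without LIF, 141 of the 168 (83.9%) did against 3.42% of all genes, and 0 as higher (edgeR, also 0 at an unadjusted p under 0.05). In that medium the 3 stiff libraries were in pool 2, and the 6 soft libraries were split, 2 in pool 2 and 4 in pool 3. The median log2(soft/stiff) of the 168 was -0.38 at 24 h, -0.33 in serum and -0.50 in serum + PD03, with medians between 0.00 and 0.01 over all genes.

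The 2 conditions inside the interaction lay on either side of these, at a median of -0.74 in serum + LIF + PD03 and -0.04 in serum + LIF at 48 h. Those last 2 medians chose the genes and carry no test. Flnc, for example, had stiff/soft ratios of 2.05 at 24 h, 1.89 in serum and 2.32 in serum + PD03, beside 1.5 and 3.22 in the 48 h LIF media. For Lrp2 the same 3 ratios were 1.47, 1.25 and 1.74. Of the 21 positive genes, 0 passed as higher on soft hydrogels at 24 h and 0 in serum, against 1.03% and 2.08% of all genes (edgeR, also 0 at an unadjusted p under 0.05). As lower, 0 passed at 24 h and 1 in serum, against 2.52% and 2.77% of all genes (1 and 3 at an unadjusted p under 0.05). In serum + PD03, 4 of the 21 passed as higher, against 2.13% of all genes. They were Bahcc1, Utf1, Zfp36l1 and Ssbp4.

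**Figure D4:**
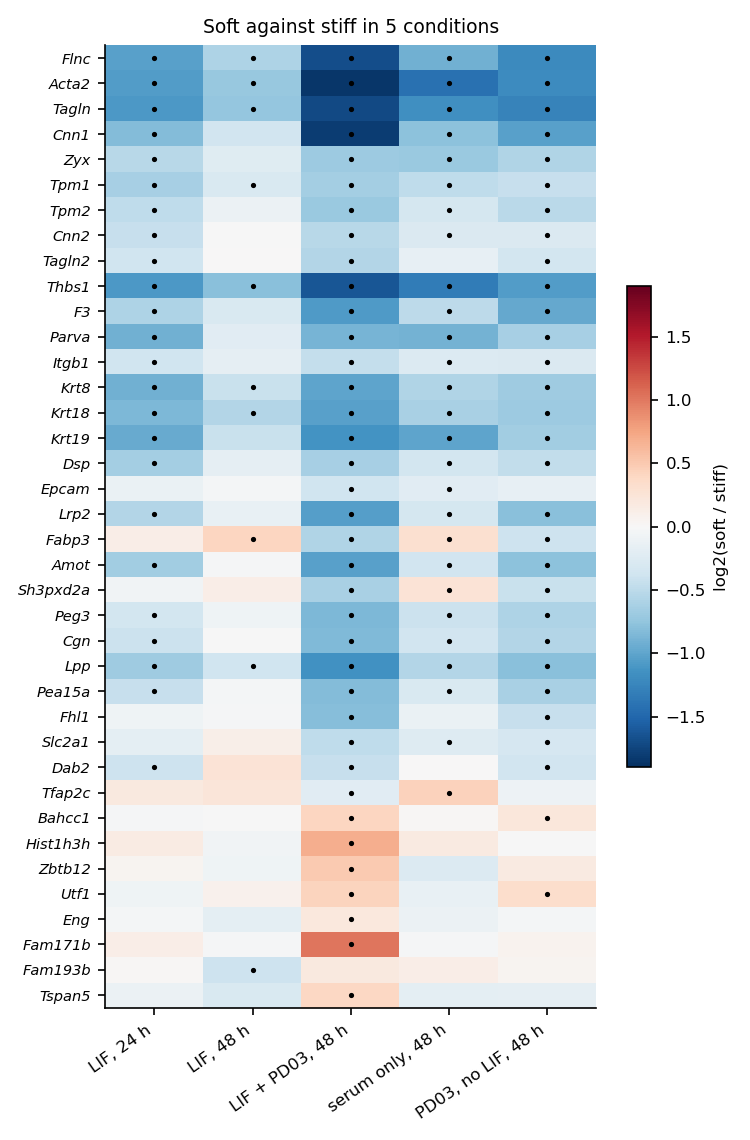
Colour gives log2(soft/stiff) for 38 genes named by rule in 5 conditions, and dots mark an adjusted p under 0.05. Actin, keratin and adhesion genes at the top are lower on soft hydrogels (blue) in most conditions. The genes with a positive interaction at the bottom differ mainly in serum + LIF + PD03. Called genes were chosen by the difference between serum + LIF + PD03 and serum + LIF at 48 h. The contrast between those columns therefore follows from the choice and carries no test.

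The same interaction was measured without LIF in 15 other libraries (soft and stiff hydrogels, serum alone and serum + PD03). There 69 genes passed as negative (0.39% of all genes) and 72 as positive (0.407%), counts that became 114 and 197 with DESeq2. Leaving out 1 of the 15 libraries gave 49 to 137 genes in both directions together, the lowest without library 2 of soft hydrogels in serum. The pools did not cancel in this contrast, since soft serum + PD03 was split between pools 2 and 3. Of the 168 genes with a negative interaction with LIF, 135 (80.4%) were negative without LIF as well, against 53.6% of all genes with a negative value with LIF, and 17 (10.1%) passed. Of the 21 positive genes 17 were positive without LIF and 2 passed, Utf1 and Ssbp4. In the opposite direction 0 of the 189 passed in edgeR or DESeq2, and 4 had an unadjusted p under 0.05. The median interaction without LIF was -0.16 for the negative genes, against -0.68 with LIF.

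Of the 10 genes with the smallest adjusted p, 4 passed without LIF as well: Lrp2, Fabp3, Amot and Sh3pxd2a. Flnc (-0.30 ± 0.09, adjusted p = 0.114), Peg3 (-0.18 ± 0.07, adjusted p = 0.311) and Cgn (-0.20 ± 0.08, adjusted p = 0.313) did not. Without LIF, Fabp3 had -0.69 ± 0.08 (adjusted p = 3.91e-07), Sh3pxd2a -0.69 ± 0.07 (adjusted p = 4.49e-09), Lrp2 -0.47 ± 0.07 (adjusted p = 9.52e-05), Amot -0.42 ± 0.09 (adjusted p = 0.0148), Tfap2c -0.53 ± 0.08 (adjusted p = 4.63e-05) and Utf1 0.48 ± 0.07 (adjusted p = 4.29e-05). Fabp3 again reversed, with a stiff/soft ratio of 0.808 in serum and 1.31 in serum + PD03.

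The actin and keratin lists held no call without LIF. Of the 22 actin and SRF genes 0 passed without LIF in edgeR, DESeq2 or limma-voom, 3 had an unadjusted p under 0.05, and their median was 0.04 against -0.45 with LIF. The 14 keratin and junction genes likewise had 0 calls without LIF (1 unadjusted) and a median of 0.04 against -0.35. Some other lists did hold calls without LIF. Of the 15 naive genes 5 passed as negative in edgeR (11 at an unadjusted p under 0.05), beside 0.39% of all genes, with a median of -0.21. Of the 13 glycolysis genes 4 passed as positive, beside 0.407% of all genes, with a median of 0.19. The difference between the interactions with and without LIF was tested in its own contrast, which 10 genes passed (0.0565% of all genes), all with the more negative value with LIF. They were Thbs1, Flnc, Peg3, Acta2, Peg10, Cgn, Parva, Csf1, Zyx and Pmp22. The pools did not cancel in this contrast, since it holds the interaction without LIF. Acta2 had an interaction of 0.22 ± 0.17 without LIF, where its level on soft and stiff hydrogels was 8.66 ± 1.38 and 23.3 ± 2.77 CPM in serum (SD, n = 3). In serum + PD03 it was 61 ± 6.91 (n = 6) and 139.6 ± 10.7 CPM (n = 3). The stiff/soft ratio was thus 2.68 without and 2.3 with PD03 when LIF was absent, and 1.65 and 3.62 when LIF was present.

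**Figure D5:**
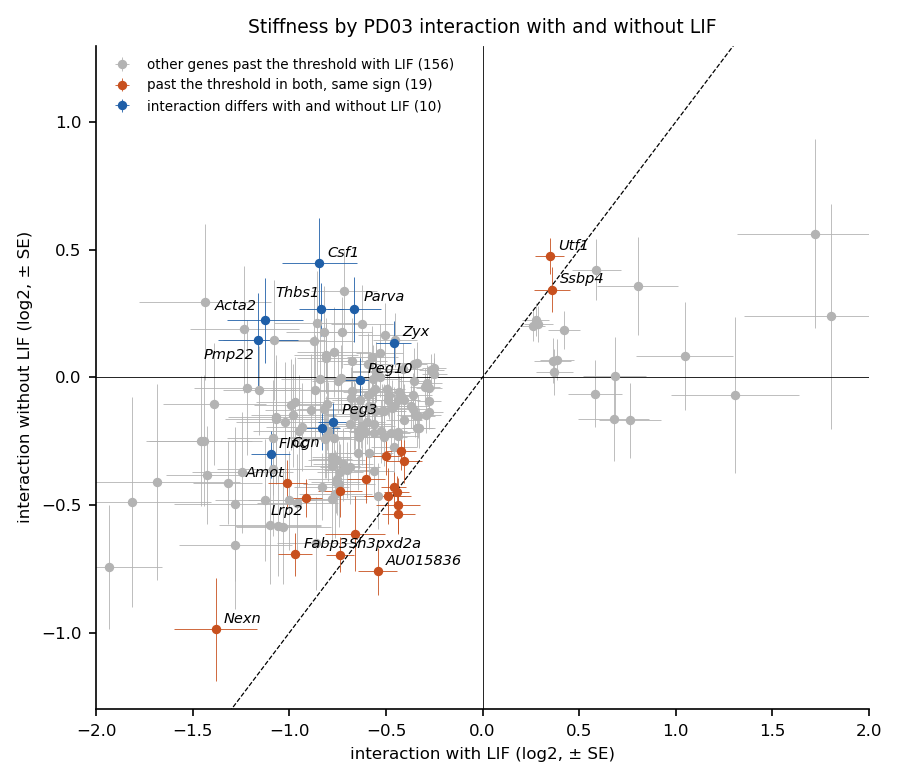
The interaction with LIF (horizontal) is set against that without LIF (vertical) for 185 of the 189 genes, on the log2 scale with SE bars (4 genes lie outside the range). The 19 genes past the threshold in both (orange) lie on the same side of 0 on both axes, and the 10 whose interactions differed by their own test (blue), among them Acta2, Thbs1 and Flnc, lie above the dashed line of equality.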

How the data were processed

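Total RNA of 36 samples was sequenced (NuGen libraries, per the labels). The authors aligned reads with STAR 2.5.2a to mm10 and deposited raw read counts per Ensembl gene from HTSeq; whether strand was used is not given in the sources used here, so overlapping genes are uncertain. Columns name a group and no replicate, so libraries were numbered in column order. No column was left out.

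Genes passing edgeR's filterByExpr (17702, holding 99.9% of counts) were fitted in edgeR 4.0.16 (R 4.3.3) with TMM factors, 1 coefficient for each of 11 groups and the quasi-likelihood test, 2-sided, with Benjamini-Hochberg adjustment over all genes at 0.05. Values are CPM after TMM. SE is the log2 value divided by the square root of F. Depth was 10405696 to 26635239 counts over all libraries, and low genes are the least precise. Replicates of a group differed by more than sampling noise in every pair of the 12 libraries. Alternatives used DESeq2 1.42.0, limma-voom 3.58.1, other scalings and filters, the 4 groups alone, a pool term and each library left out. The fit was tested on simulated data. Coordinates came from GENCODE M21 (GRCm38), and symbols from a separate list of gene names.

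Genes named are the 10 negative and 8 positive calls with the smallest p and a mean of at least 5 CPM in 1 of the 4 groups, the first 2 of each pattern, every called member of the gene lists and, from lists with no call, up to 3 most expressed members. The members and lists were chosen with earlier results of these data known.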

Additional observations from a re-analysis of the deposited data

Results flagged for a closer look

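The difference between the interactions with and without LIF passed its own test for 10 genes, each with the more negative value with LIF. On the log2 scale (SE, edgeR adjusted p) it was -1.10 ± 0.15 for Thbs1 (8.15e-05), -0.80 ± 0.14 for Flnc (0.00393), -0.60 ± 0.11 for Peg3 (0.0066), -1.35 ± 0.26 for Acta2 (0.0147) and -0.63 ± 0.12 for Peg10 (0.02). For the others it was -0.63 ± 0.12 for Cgn (0.02), -0.93 ± 0.19 for Parva (0.0235), -1.29 ± 0.26 for Csf1 (0.0235), -0.60 ± 0.13 for Zyx (0.0364) and -1.31 ± 0.28 for Pmp22 (0.0388). Csf1, the macrophage growth factor, and Pmp22, a tetraspan membrane protein, had interactions of -0.85 ± 0.20 and -1.16 ± 0.21 with LIF and 0.45 ± 0.18 and 0.15 ± 0.18 without it. Peg10, an imprinted gene derived from a retrotransposon, had -0.64 ± 0.09 and -0.01 ± 0.08. The pools did not cancel in the contrast behind these differences. How many of the 10 genes hold with a pool term or with a library left out is not given here.

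For 3 of the 70 genes named, 1 of the 6 libraries of soft hydrogels in serum + PD03 lay apart from the other 5. It was a different library for each gene, at 269 CPM for Tpm1, 91.6 CPM for Dsp and 1633 CPM for Sall4. Chance flags about 1 in 20 groups of this kind.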

How the results depend on the processing

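No paired analysis was possible because the columns carry no replicate numbers. The count of 189 genes ran from 165 (limma-voom) to 267 (DESeq2) over 8 other scalings, filters, tools and fits. Each of the 189 interactions kept its sign wherever the gene was fitted, in these, in the pool fits and with each library left out. The filter at a mean of 5 CPM left out the low genes among the 189, such as Serpinb8, which have no value there. Leaving out 1 library gave 114 to 256 genes, the lowest without library 2 of soft hydrogels in serum + LIF. The 43 called genes named kept their call in all 12 such fits in 27 cases. The call was lost at least once for Tagln, Krt18, Zbtb12, Utf1, Eng, F3, Krt19, Fam171b, Fam193b, Tspan5, Bhlhe22, Epha2, Hand1, Tnc, Epcam and Itgb1, for 13 of these 16 without library 2 of soft hydrogels in serum + LIF. Without LIF the count of 141 became 222 with no filter and 311 with DESeq2 (114 negative, 197 positive), and 49 to 137 with a library left out, lowest without library 2 of soft hydrogels in serum (68 without library 1 or 3 of stiff hydrogels in serum + PD03). The 10 genes whose interactions differed became 84 with no filter and 58 with DESeq2. Between soft and stiff hydrogels in serum + LIF, 138 became 266 with no filter, 242 with DESeq2 and 27 to 235 with a library left out, lowest without library 3 of the stiff group. In serum + LIF + PD03 the 1348 genes became 905 to 1346 with a library left out. The causes of these shifts were not tested. Depth limits genes under 5 CPM in all 4 groups, 4 of the 168 negative and 5 of the 21 positive.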

Other observations

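A set of known imprinted genes was drawn up after the results were seen and carries no test. Of 46 members expressed, 9 had a negative interaction past the threshold (H19, Igf2, Peg3, Peg10, Mest, Cdkn1c, Phlda2, Nnat and Sfmbt2) and 0 a positive one in edgeR, beside 0.949% and 0.119% of all genes, and the median was -0.12. These genes give expression from the copy of 1 parent, and several of them act on growth in the placenta and embryo. The growth factor gene Igf2 stood at 116, 115 and 85.7 CPM on soft and 108, 116 and 148 CPM on stiff hydrogels without PD03, and at 558, 565 and 669.7 CPM on soft and 1220, 1095 and 1073 CPM on stiff hydrogels with it (interaction -0.68 ± 0.13, adjusted p = 0.0012). H19, its neighbour, stood at 35.1, 34.7 and 27.7 CPM on soft and 32, 32.8 and 42.3 CPM on stiff hydrogels without PD03, and at 152, 148 and 188 CPM on soft and 323, 299 and 294 CPM on stiff hydrogels with it (interaction -0.76 ± 0.13, adjusted p = 0.00014). For both, the substrates overlapped without PD03 and were apart with it. Without LIF, 1 of the 46 passed.

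Genes on the X chromosome held 19 of the 189 calls (3.03% of 627 tested, beside 1.07% of all genes), 18 of them negative. Besides Amot and Fhl1 they included Nrk, a kinase of the placenta, at 19.5, 21.5 and 17.5 CPM on soft and 17, 21.4 and 26.2 CPM on stiff hydrogels without PD03, and at 86.7, 90.1 and 108 CPM on soft and 192, 154 and 160.2 CPM on stiff hydrogels with it (interaction -0.67 ± 0.15, adjusted p = 0.00761). This too was noticed after the calls were made and was not tested.

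Tight junction and polarity genes, a set also drawn up afterwards, held 4 negative calls of 21 tested (Cgn, Cgnl1, Pard6b and Amot), beside 0.949% of all genes, with a median of -0.20. Largest in size among the negative calls was Serpinb8 at -3.23, with only 0.10 to 1.28 CPM in the 12 libraries, so its size is imprecise.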
